A study of Mus musculus with 9 samples.

Results

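The unfolded protein response and endoplasmic reticulum (ER) folding genes were followed as a list of 32 named genes, all of which were found by symbol among the 52550 gene identifiers of each mouse liver table. The list held 11 chaperones and their cofactors, 4 disulfide isomerases, 4 sensors and regulators, 8 genes of ER-associated degradation and 5 genes of protein translocation into the ER. Of the 32 genes, 31 passed a filter of at least 1 FPKM (fragments per kilobase of transcript, scaled to sequencing depth) in at least 3 of the 9 libraries. The exception was Derl3, a derlin, which did so in a single p53-heterozygous library after rescaling and in none as deposited.

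The 9 libraries came in 3 groups of 3, all from liver at 320 days of age. Double-mutant livers carried p53+/- together with Tsc1fl/fl and Alb-Cre, Tsc1-deleted livers carried Tsc1fl/fl and Alb-Cre alone, and p53-heterozygous livers carried p53+/- alone. Alb-Cre expresses the Cre recombinase from the albumin promoter, which is active in hepatocytes and in the precursors they share with bile duct cells, so cells of other lineages in those livers keep Tsc1. The labels name p53+/- as the genotype of the mouse. The series' text counts 6 groups, and the others were not analysed here. The comparisons ask how the double mutant stood against each single genotype, and the Tsc1-deleted liver against the p53-heterozygous one, and no liver with neither alteration was used.

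Hepatocytes secrete most plasma proteins and pass them through the ER, where chaperones fold them, isomerases form their disulfide bonds, and misfolded chains are returned to the cytosol for degradation. When unfolded protein accumulates, ER membrane sensors act: ATF6 is cleaved to release a transcription factor, IRE1 (encoded by Ern1) splices the Xbp1 mRNA, and PERK (encoded by Eif2ak3) slows translation. TSC1 is part of the complex that restrains mTORC1, a kinase that promotes protein synthesis, and p53 is a stress-responsive transcription factor. Gene-level FPKM does not separate the spliced from the unspliced Xbp1 mRNA, nor cleaved from whole ATF6.

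Libraries differed in ways that bear on every value below. Nuclear protein-coding genes made up 7.43% and 6.63% of the length-weighted signal in p53-heterozygous libraries 1 and 2, against 61.8% in p53-heterozygous library 3 and 65.9 to 87.3% in the other 6 libraries. Mitochondrial genes took 7.98 to 11.9% in double-mutant, 9.56 to 24.1% in Tsc1-deleted and 25.5 to 68.0% in p53-heterozygous libraries. The FPKM step of a single read put depth at about 10700000 to 18400000 reads, of which about 1050000 and 710000 were nuclear protein-coding in p53-heterozygous libraries 1 and 2. P53-heterozygous library 3 went against its tissue label. Its 9 hepatocyte markers summed to 607.5 rescaled FPKM, against 17368 to 32442 in the other 8 libraries, while its 7 macrophage markers summed to 1326 (86.8 to 379 in the other 8). Lyz2 at 724 and C1qa at 476 rescaled FPKM carried that macrophage sum, while the Kupffer cell genes Clec4f, at 0.228, and Vsig4, at 0, were the lowest of the 9 there. In the same library the 6 stellate and fibroblast markers summed to 654.8 (9.51 to 71.7 in the other 8). Cholangiocyte markers (5 genes) summed to 761 to 2727 rescaled FPKM in double-mutant, 411 to 2019 in Tsc1-deleted and 83.7 to 1974 in p53-heterozygous libraries, most of it Spp1 (2658 in double-mutant library 1, 1989 in Tsc1-deleted library 3 and 1699 in p53-heterozygous library 3). Krt19 at 217 and Krt7 at 44.1 were highest in p53-heterozygous library 3, against at most 37.6 and 7.64 in the other 8. Epcam, Sox9 and Spp1 lay there within the range of the other 8. Markers of endothelium, B and T cells and pancreatic acinar cells, whose ER is dense, summed to at most 25.5, 24.5 and 16.9 rescaled FPKM in any library, and 4 of the 8 acinar genes were at 0 in all 9. Tsc1 itself measured 0.792, 0.879 and 0.804 rescaled FPKM in double-mutant, 0.594, 0.749 and 0.707 in Tsc1-deleted and 1.17, 2.18 and 1.03 in p53-heterozygous libraries, so the groups labelled as deleted lay below the others on that scale. They did not as deposited, at 1.04 to 1.14 FPKM in double-mutant, 0.767 to 0.953 in Tsc1-deleted and 0.147 to 0.993 in p53-heterozygous libraries. Trp53, of which 1 allele is altered in the first and the last of these groups, measured 7.23, 4.53 and 5.35 rescaled FPKM in double-mutant, 5.47, 6.97 and 12.2 in Tsc1-deleted and 4.23, 4.27 and 16.0 in p53-heterozygous libraries, with overlapping groups.

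For these reasons the tests were run on a pair of scales. The deposited scale is FPKM as the authors left it. The rescaled one brings every library to the same total FPKM over nuclear protein-coding genes, and levels below are rescaled FPKM unless the deposited scale is named. Log2 changes are differences of log2(FPKM + 1), which understates the change of low genes. Whether each library is from an animal of its own is not stated in the labels, so every p value measures the spread between libraries, which may be technical. All 3 groups share 1 estimate of that spread. The p values and SEs of double mutant minus Tsc1-deleted therefore also carry the spread of the p53-heterozygous libraries, which were not compared there. In bulk tissue, fewer cells of a type and less RNA per cell cannot be told apart.

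Several of these genes are known for a shared promoter element, so the letters near their start sites are shown first. RefSeq promoters (GRCm38.p6, 250 bases before to 50 after the start site) were in the table for 25 of the 32 genes. The ER stress element, bound by ATF6 together with NF-Y, reads CCAAT, any 9 bases, then CCACG, and on the other strand CGTGG, any 9 bases, then ATTGG. It occurred in 9 of the 25 (36%) and in 37 of all 27025 promoters (0.137%). The 9 were Hspa5, Hsp90b1, Calr, Canx, Pdia6, Dnajc3, Creld2, Syvn1 and Derl3. In the windows below, the ER stress element or its second form is in capitals and everything else is in lower case, written 5′ to 3′ on the gene's strand. They were chosen to span chaperones, cofactors and degradation genes that behaved differently across the libraries.
Hspa5, chr2:34772000-34772068, plus strand: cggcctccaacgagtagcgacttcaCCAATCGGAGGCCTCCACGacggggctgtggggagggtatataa
Calr, chr8:84847050-84847118, minus strand: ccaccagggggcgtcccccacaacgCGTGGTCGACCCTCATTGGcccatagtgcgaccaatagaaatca
Canx, chr11:50325775-50325843, minus strand: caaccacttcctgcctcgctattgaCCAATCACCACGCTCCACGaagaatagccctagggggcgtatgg
Dnajc3, chr14:118937802-118937870, plus strand: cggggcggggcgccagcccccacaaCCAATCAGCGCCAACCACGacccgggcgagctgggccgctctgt
Creld2, chr15:88819495-88819563, plus strand: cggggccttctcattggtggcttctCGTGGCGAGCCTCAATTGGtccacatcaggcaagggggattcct
Syvn1, chr19:6046507-6046575, plus strand: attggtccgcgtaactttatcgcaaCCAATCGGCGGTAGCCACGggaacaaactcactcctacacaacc
Herpud1, chr8:94386352-94386412, plus strand: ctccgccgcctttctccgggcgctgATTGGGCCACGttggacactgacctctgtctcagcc

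The element began 65 bases before the start site in Hspa5 and 44 before it in Syvn1. The second form reads ATTGG, any 1 base, then CCACG, or on the other strand CGTGG, any 1 base, then CCAAT. It occurred in Dnajb11 and Herpud1, 2 of 25 genes (8%), and in 12 of all promoters (0.0444%). The unfolded protein response element TGACGTGG, or CCACGTCA, was in none of the 25 windows and in 0.714% of all promoters. The 10 tested genes with either ER stress element had a median double mutant minus p53-heterozygous log2 change of 0.63 on the rescaled scale, against 0.65 in the 14 with neither. A match describes the letters and not a bound site. Promoters of Manf, Hyou1, Atf6, Derl1, Sec61a1, Ssr2 and Sec11c were not used here.

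Among the sensors, Atf6 stood highest in double-mutant liver on both scales. Atf6 encodes the ER membrane protein whose cleaved fragment activates chaperone genes. It measured 8.06, 9.55 and 7.78 rescaled FPKM in double-mutant, 3.16, 3.95 and 5.09 in Tsc1-deleted and 2.65, 2.03 and 3.93 in p53-heterozygous libraries. All 3 double-mutant libraries lay above the other 6, while the Tsc1-deleted and p53-heterozygous libraries overlapped. Atf6 rose in double-mutant against p53-heterozygous liver by 1.31 on the log2 scale after rescaling (SE 0.31, limma adjusted p = 0.0481) and by 2.59 (limma adjusted p = 0.0159) as deposited. Against Tsc1-deleted liver the rescaled log2 difference was 0.91 (SE 0.31), which did not pass (limma adjusted p = 0.882).

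Ern1, the gene of the IRE1 sensor kinase and RNase, measured 8.11, 6.63 and 5.01 rescaled FPKM in double-mutant, 2.43, 2.78 and 5.33 in Tsc1-deleted and 2.38, 2.75 and 2.5 in p53-heterozygous libraries. Tsc1-deleted library 3 lay within the double-mutant range and the 3 p53-heterozygous libraries were close together and below it. The double mutant minus p53-heterozygous log2 difference was 1.08 (SE 0.32) after rescaling, which missed the threshold (limma adjusted p = 0.0919), and 2.39 as deposited, which passed (limma adjusted p = 0.0165).

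Xbp1, whose spliced mRNA encodes an activator of folding and degradation genes, measured 49.7, 30.1 and 37.8 rescaled FPKM in double-mutant, 23.6, 22.8 and 44.8 in Tsc1-deleted and 17.2, 15.6 and 25.9 in p53-heterozygous libraries. Tsc1-deleted library 3 again lay among the double mutants. The rescaled log2 difference between double-mutant and p53-heterozygous liver was 0.97 (SE 0.42) and did not pass (limma adjusted p = 0.212), while the deposited difference of 3.06 passed (limma adjusted p = 0.0267). Wfs1 encodes wolframin, an ER membrane protein that moderates ATF6. It measured 2.81, 2.20 and 3.27 rescaled FPKM in double-mutant, 1.39, 1.33 and 2.42 in Tsc1-deleted and 1.35, 0.428 and 1.84 in p53-heterozygous libraries. The double-mutant libraries were all above the p53-heterozygous ones and overlapped the Tsc1-deleted ones, with a log2 difference of 0.82 (SE 0.32) against p53-heterozygous liver that did not pass after rescaling (limma adjusted p = 0.175). As deposited it passed at 1.60 (limma adjusted p = 0.0309). For all 4 sensors and regulators the double-mutant libraries lay wholly above the p53-heterozygous ones on both scales, as they did for 41.3% of all tested genes as deposited and 17.4% after rescaling.

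Among the degradation genes, Derl1 had the highest estimate of the list for double-mutant against p53-heterozygous liver on both scales. Derl1 encodes derlin-1, a membrane protein of the channel that returns misfolded proteins to the cytosol. It measured 67.1, 50.9 and 35.1 rescaled FPKM in double-mutant, 26.4, 26.8 and 29.1 in Tsc1-deleted and 10.2, 4.97 and 16.7 in p53-heterozygous libraries. The 3 groups did not overlap, with double-mutant liver highest and p53-heterozygous liver lowest. As deposited it measured 89.8, 66.1 and 45.3 FPKM in double-mutant, 34.1, 32.9 and 39.3 in Tsc1-deleted and 1.27, 0.577 and 16.2 in p53-heterozygous libraries. Derl1 rose in double-mutant against p53-heterozygous liver by 2.25 on the log2 scale after rescaling (SE 0.46, limma adjusted p = 0.0344) and by 4.05 (limma adjusted p = 0.0104) as deposited. In Tsc1-deleted against p53-heterozygous liver it rose by 3.20 as deposited (limma adjusted p = 0.0344), while the rescaled difference of 1.43 did not pass (limma adjusted p = 0.166). The rescaled double mutant minus Tsc1-deleted difference of 0.83 did not pass either (limma adjusted p = 0.882).

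The rescaled calls of Derl1 and Atf6 against p53-heterozygous liver rested on most of the libraries. Each held when p53-heterozygous library 3 or Tsc1-deleted library 3 was left out, and each was lost when any of the other 7 libraries was left out, with limma adjusted p from 0.0643 to 0.136 for Derl1 and from 0.0815 to 0.181 for Atf6. The log2 change stayed between 1.84 and 2.62 for Derl1 and between 1.15 and 1.5 for Atf6.

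**Figure D1:**
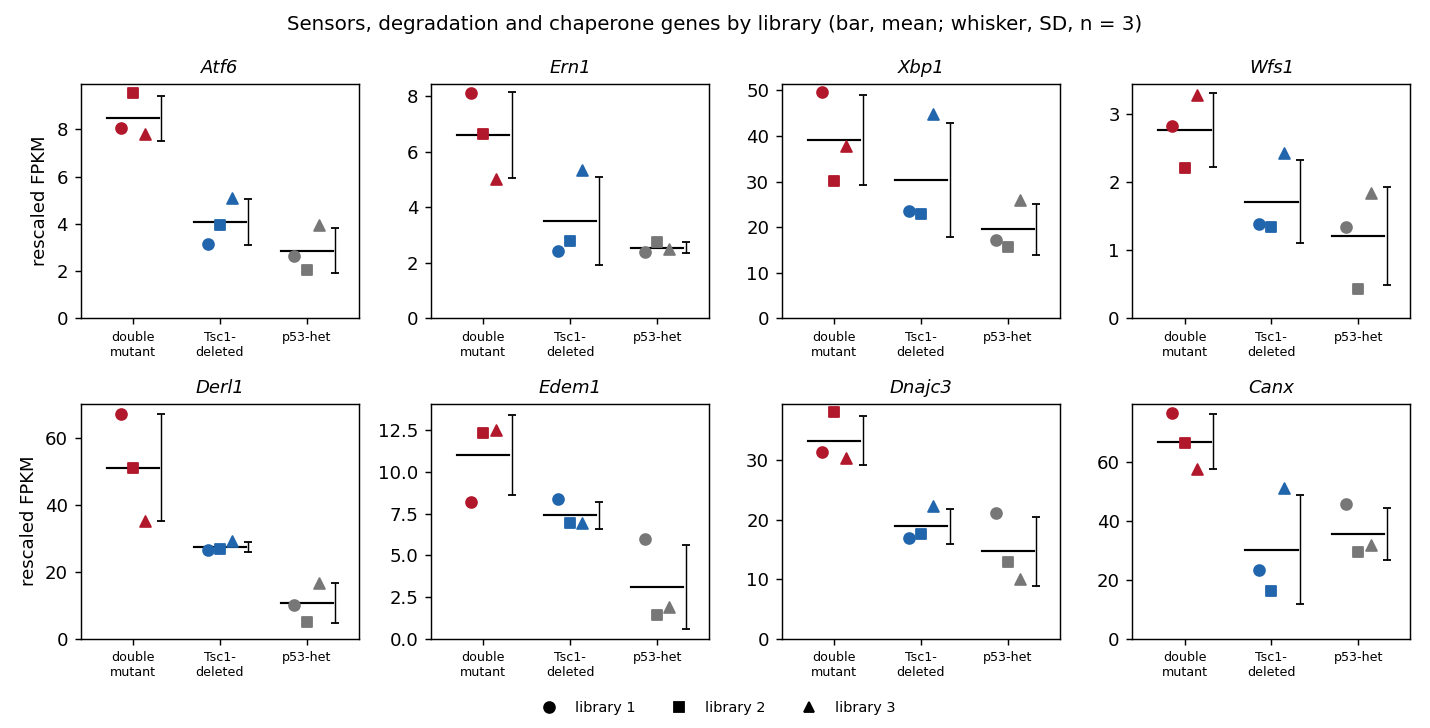
Rescaled FPKM of Atf6, Ern1, Xbp1, Wfs1, Derl1, Edem1, Dnajc3 and Canx by group, 1 point per library, with the mean as a bar and the SD as a whisker (n = 3 each). Atf6, Derl1, Dnajc3 and Canx have all 3 double-mutant points above the other 6, and Tsc1-deleted library 3 (triangle) lies above libraries 1 and 2 of its group in every panel but that of Edem1.

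Edem1, a mannosidase-like protein that directs misfolded glycoproteins to degradation, measured 8.23, 12.3 and 12.5 rescaled FPKM in double-mutant, 8.35, 6.97 and 6.93 in Tsc1-deleted and 5.98, 1.42 and 1.88 in p53-heterozygous libraries. Both Tsc1-deleted and double-mutant libraries lay above all p53-heterozygous ones. The log2 difference between double-mutant and p53-heterozygous liver was 1.70 (SE 0.42) after rescaling (limma adjusted p = 0.0545), and it passed as deposited at 3.08 (limma adjusted p = 0.00871).

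Syvn1 encodes HRD1, the ubiquitin ligase at the centre of ER-associated degradation, and had the lowest estimate of the list for double-mutant against p53-heterozygous liver on both scales. It measured 7.03, 6.75 and 8.25 rescaled FPKM in double-mutant, 7.79, 11.4 and 6.29 in Tsc1-deleted and 61.1, 12.3 and 8.74 in p53-heterozygous libraries. All double-mutant libraries were below all p53-heterozygous ones, and p53-heterozygous library 1 was far above the rest. The log2 difference of -1.27 (SE 0.62) did not pass after rescaling (limma adjusted p = 0.265), and on the deposited scale it was 0.86, with the opposite sign (limma adjusted p = 0.324). Syvn1 shares exon sequence with a neighbouring gene, Mrpl49, and the sources used here do not state whether strand was used in counting.

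The other degradation genes did not pass after rescaling. Herpud1, a stress-induced scaffold of the HRD1 complex, measured 49.9, 54.2 and 41.4 rescaled FPKM in double-mutant, 34.6, 18.3 and 59.3 in Tsc1-deleted and 57.3, 36.1 and 8.31 in p53-heterozygous libraries, with overlapping groups. Selenos, a selenoprotein of the same machinery, averaged 25.4 ± 10.9 rescaled FPKM in double-mutant, 16.8 ± 2.65 in Tsc1-deleted and 14.3 ± 9.48 in p53-heterozygous livers (SD, n = 3 each). Sel1l, the HRD1 adaptor, averaged 6.88, 5.36 and 6.51 rescaled FPKM across double-mutant, Tsc1-deleted and p53-heterozygous livers, and Derl2 averaged 6.52, 6.51 and 5.08, with no difference that passed. Derl3 stayed below 0.26 rescaled FPKM everywhere except p53-heterozygous library 1, at 2.24, and it was listed at 0 in p53-heterozygous library 2.

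Among the chaperones, Hspa5, which encodes BiP, the ER HSP70 that holds the sensors inactive, had its widest spread inside 1 group. It measured 194, 112 and 69.8 rescaled FPKM in double-mutant, 58.8, 48.0 and 99.5 in Tsc1-deleted and 200, 33.6 and 10.01 in p53-heterozygous libraries. The highest and the lowest of the 9 values were both in the p53-heterozygous group. The rescaled log2 difference of 1.45 (SE 0.93) between double-mutant and p53-heterozygous liver did not pass (limma adjusted p = 0.400). As deposited, Hspa5 measured 259, 146 and 89.9 FPKM in double-mutant, 76.1, 59.0 and 134 in Tsc1-deleted and 25.1, 3.90 and 9.67 in p53-heterozygous libraries. On that scale it rose by 3.77 in double-mutant (limma adjusted p = 0.0123) and by 2.95 in Tsc1-deleted liver (limma adjusted p = 0.0442), each against p53-heterozygous liver.

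Dnajc3, a BiP cochaperone that also inhibits PERK, measured 31.4, 38.0 and 30.4 rescaled FPKM in double-mutant, 16.8, 17.6 and 22.3 in Tsc1-deleted and 21.1, 12.9 and 9.96 in p53-heterozygous libraries. Canx, the membrane lectin chaperone calnexin, measured 76.6, 66.6 and 57.7 rescaled FPKM in double-mutant, 23.3, 16.3 and 51.2 in Tsc1-deleted and 45.7, 29.4 and 31.8 in p53-heterozygous libraries. For both genes the 3 double-mutant libraries were above the other 6, and Tsc1-deleted library 3 was the nearest of its group. Against p53-heterozygous liver the rescaled log2 difference was 1.19 (SE 0.37, limma adjusted p = 0.105) for Dnajc3 and 0.91 (SE 0.47, limma adjusted p = 0.299) for Canx, neither past the threshold. As deposited both passed, at 3.27 for Dnajc3 (limma adjusted p = 0.0136) and 3.17 for Canx (limma adjusted p = 0.0227). Against Tsc1-deleted liver the rescaled difference of 1.27 (SE 0.47) for Canx did not pass (limma adjusted p = 0.882). Calr, the soluble partner of calnexin, had closer group means, at 325 ± 6.41 rescaled FPKM in double-mutant, 308 ± 38.6 in Tsc1-deleted and 328 ± 148 in p53-heterozygous livers (SD, n = 3 each). Within the p53-heterozygous group it ran from 230 to 498. As deposited it passed in double-mutant against p53-heterozygous liver at 2.49 (limma adjusted p = 0.0477).

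Hyou1, the nucleotide exchange factor of BiP, measured 11.4, 7.07 and 7.07 rescaled FPKM in double-mutant, 1.30, 0.896 and 5.46 in Tsc1-deleted and 18.8, 1.66 and 0.853 in p53-heterozygous libraries. Its rescaled double mutant minus Tsc1-deleted log2 difference of 1.61 (SE 0.82) was the widest of the list in that comparison and did not pass (limma adjusted p = 0.882). Creld2, a secreted stress-inducible ER protein, measured 40.1, 15.4 and 27.0 rescaled FPKM in double-mutant, 9.56, 15.3 and 18.5 in Tsc1-deleted and 78.8, 6.86 and 25.2 in p53-heterozygous libraries. Against p53-heterozygous liver, Hyou1 passed as deposited at 2.61 (limma adjusted p = 0.0154) and not after rescaling at 1.02 (limma adjusted p = 0.514). Creld2 passed on neither scale. In both genes p53-heterozygous library 1 was the highest of the 9. The remaining chaperones and cofactors, namely Hsp90b1 (GRP94, the ER HSP90), Dnajb9, Dnajb11, Sdf2l1 and Manf, had rescaled log2 differences between -0.14 and 1.04 for double-mutant against p53-heterozygous liver, none past the threshold.

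**Figure D2:**
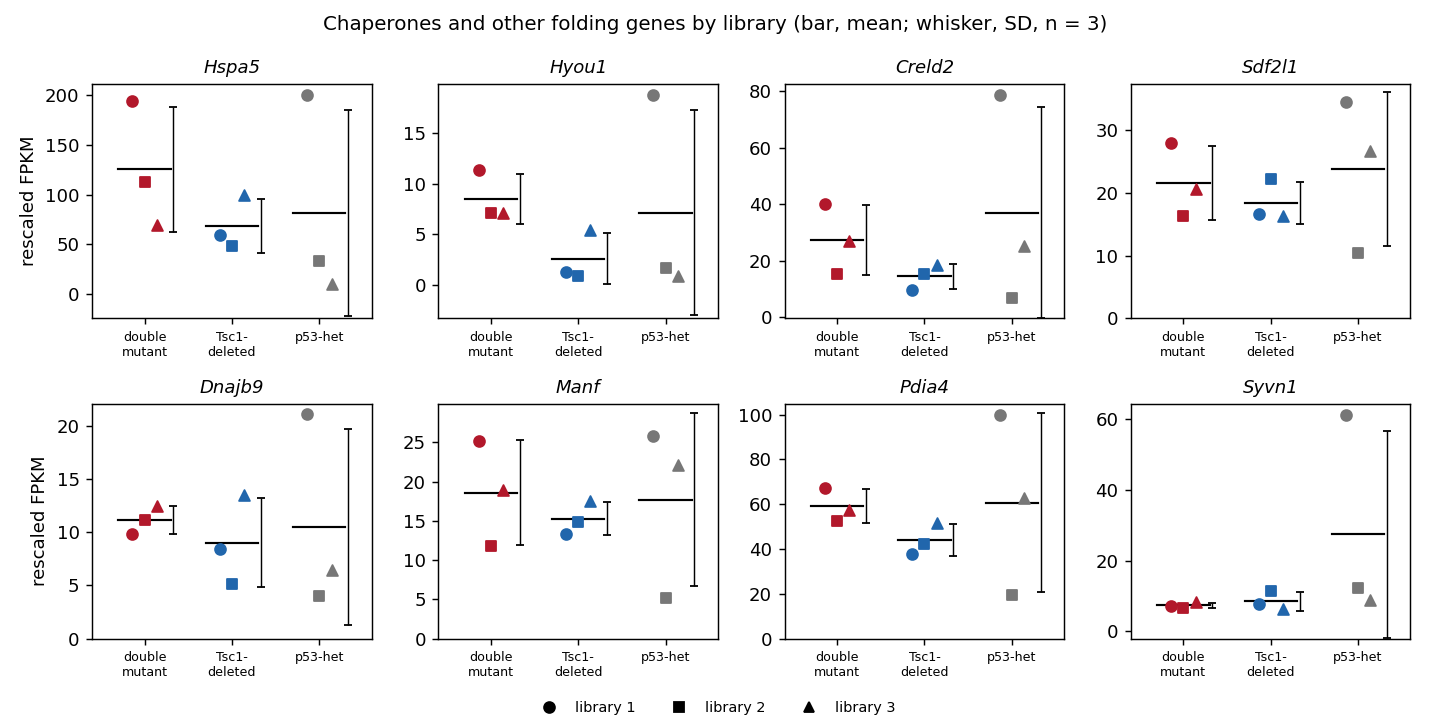
Rescaled FPKM of Hspa5, Hyou1, Creld2, Sdf2l1, Dnajb9, Manf, Pdia4 and Syvn1 by group, 1 point per library, with the mean as a bar and the SD as a whisker (n = 3 each). P53-heterozygous library 1 (grey circle) is the highest of the 9 points in every panel, for example 200 for Hspa5 and 78.8 for Creld2. The panels are all among the 12 of the 32 genes for which this held. It did not hold for other chaperones and isomerases such as Canx, Dnajc3, Dnajb11, Pdia3 and P4hb.

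Among the 4 disulfide isomerases, P4hb, protein disulfide isomerase itself, had the highest mean rescaled level of the list in double-mutant liver. It measured 354, 598 and 383 rescaled FPKM in double-mutant, 308, 282 and 287 in Tsc1-deleted and 297, 127 and 202 in p53-heterozygous libraries. All double-mutant libraries were above the other 6, and the rescaled log2 difference against p53-heterozygous liver was 1.13 (SE 0.55), which did not pass (limma adjusted p = 0.264). As deposited it passed at 3.53 (limma adjusted p = 0.0186). Pdia3, which works with calnexin and calreticulin, averaged 176 ± 30.9 rescaled FPKM in double-mutant, 137 ± 28.2 in Tsc1-deleted and 124 ± 83.3 in p53-heterozygous livers (SD, n = 3 each). Pdia4 and Pdia6 averaged 59.0 and 37.6 rescaled FPKM in double-mutant, 44.0 and 35.8 in Tsc1-deleted and 60.7 and 31.8 in p53-heterozygous livers, with rescaled differences that did not pass in any comparison.

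Of the 5 translocation genes none passed after rescaling. Sec61a1, the pore of the translocon, measured 30.6, 22.5 and 22 rescaled FPKM in double-mutant, 15.3, 18.7 and 20.3 in Tsc1-deleted and 13.6, 6.85 and 23.7 in p53-heterozygous libraries. The double-mutant libraries were above the Tsc1-deleted ones and overlapped the p53-heterozygous ones. Sec61b, its beta subunit, reached 46.2 rescaled FPKM in p53-heterozygous library 3, the highest of the 9, against 11.5 and 5.94 in libraries 1 and 2 of that group. Ssr1 and Sec11c were also highest in that library, at 19.8 and 13.1 rescaled FPKM. Ssr1 and Ssr2 encode subunits of the translocon-associated protein complex and Sec11c a catalytic subunit of signal peptidase. The rescaled log2 differences of these 5 genes for double-mutant against p53-heterozygous liver ran from -0.49 for Ssr1 to 0.86 for Sec61a1.

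Counted over the list, no gene passed between double-mutant and Tsc1-deleted liver by limma on either scale, where 0.0166% of the 12014 tested genes were called higher on each, with 0.00832% called lower as deposited and 0% after rescaling. At an unadjusted p under 0.05, 1 member passed as deposited (2.13% of all genes) and 3 after rescaling (4.26% of all genes), namely Canx, Atf6 and Ern1. These counts include the p53-heterozygous spread. With only the 6 libraries compared, 6 members passed at that unadjusted limit on each scale, beside 1379 genes as deposited and 1535 after rescaling. None of the members passed there after adjustment. The rescaled log2 differences had a median of 0.44 over the 31 genes and 0.25 over all tested genes. The estimate was positive for 29 of the 31 and for 74.8% of all genes. Groups did not overlap, with the double mutant higher, for 9 of the 31 on each scale, where 11.4% of all genes did so as deposited and 13.2% after rescaling.

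Between double-mutant and p53-heterozygous liver, 18 of the 31 genes passed as higher and none as lower on the deposited scale, where 31.9% of all tested genes passed as higher and 0.449% as lower. These 18 held all 4 sensors and regulators, 7 of the 11 chaperones and cofactors, 2 of the 4 isomerases, 4 of the 7 tested degradation genes and 1 of the 5 translocation genes. The count of 18 became 31 without p53-heterozygous library 3, where 93.3% of all genes passed as higher. It became 4 without library 1 of that group (6.36% of all genes) and 2 without library 2 (7.06%). Without double-mutant libraries 1, 2 and 3 in turn it was 1 (3.99%), 0 (2.66%) and 3 (6.34%). After rescaling 2 passed as higher, Derl1 and Atf6, and none as lower, where 2.15% of all genes passed as higher and 1.57% as lower. The median log2 change was 2.49 over the 31 genes and 1.38 over all genes as deposited, and 0.74 over the 31 and 0.16 over all genes after rescaling. Without p53-heterozygous library 2 the rescaled median fell to 0.18 over the 31 genes and 0.04 over all genes, and without libraries 1 and 2 to 0.07 and -0.28. Over all genes, 3838 were called higher and 54 lower as deposited, and 258 higher and 189 lower after rescaling. Groups did not overlap, with the double mutant higher, for 23 of the 31 as deposited (41.3% of all genes) and 9 after rescaling (17.4% of all genes). With the double mutant lower they did not overlap for 1 gene after rescaling, Syvn1 (9.56% of all genes).

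That comparison depended on which p53-heterozygous libraries entered it. Without p53-heterozygous library 3, the library low in hepatocyte markers, 10 of the 31 genes passed as higher after rescaling (Xbp1, Ern1, Dnajc3, Derl1, Atf6, Pdia3, Sec61a1, Edem1, Wfs1 and Sec61b), and Syvn1 passed as lower, beside 18% of all genes higher and 6.06% lower. Without p53-heterozygous libraries 1 and 2, the mitochondria-rich pair, 6 passed as higher (Dnajc3, Derl1, Hspa5, Edem1, Herpud1 and Hyou1) and Ssr1 passed as lower, beside 9.39% of all genes higher and 18.4% lower. The remaining p53-heterozygous library was there assumed to vary like the other groups. The part of hepatocyte content and of nuclear depth in these values was not tested.

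Between Tsc1-deleted and p53-heterozygous liver, 4 of the 31 genes passed as higher on the deposited scale, namely Derl1, Hspa5, Edem1 and Herpud1, where 12.1% of all genes passed as higher and 0.0916% as lower. That count became 30 without p53-heterozygous library 3, where 89.4% of all genes passed as higher. It became 1 without library 1 of that group (4.81% of all genes) and 0 without library 2 (5.04%). Without any 1 Tsc1-deleted library it was 0 (0.00832 to 0.0749% of all genes), and without any 1 double-mutant library it was 1 (6.41 to 7.29%). None passed by limma after rescaling (2 without p53-heterozygous library 3, Derl1 and Sec61b, beside 4.17% of all genes), where 0.0832% of all genes passed as higher and 0.0916% as lower. At an unadjusted p under 0.05, 2 of the 31 passed after rescaling and 16.8% of all genes did. The median rescaled log2 difference was 0.33 over the 31 genes and -0.10 over all genes. Its sign turned over the 31 genes without p53-heterozygous library 2, at -0.16 beside -0.23 over all genes, and without libraries 1 and 2, at -0.09 beside -0.55. The groups did not overlap, with Tsc1-deleted liver higher, for 16 of the 31 as deposited (27.4% of all genes) and 2 after rescaling, Derl1 and Edem1 (8.75% of all genes). The double-mutant and Tsc1-deleted comparisons with p53-heterozygous liver share the p53-heterozygous libraries.

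**Figure D3:**
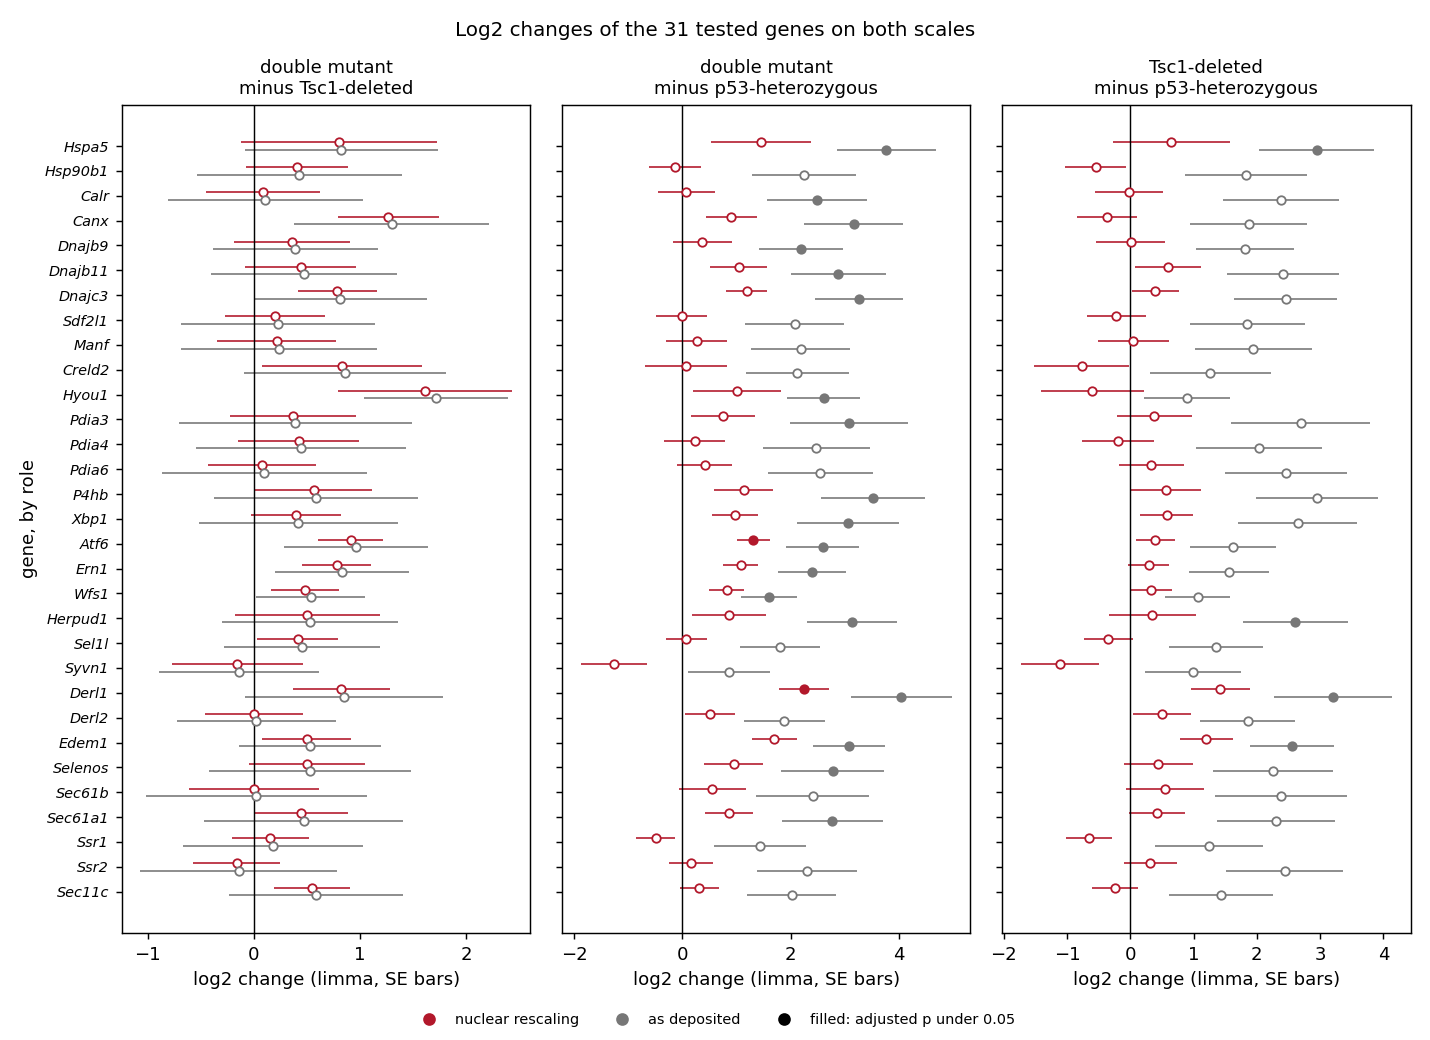
Log2 change with its SE for the 31 tested genes in the 3 comparisons, after rescaling (red) and as deposited (grey), with filled points at a limma adjusted p under 0.05. The 2 scales nearly coincide for double mutant minus Tsc1-deleted, and in both comparisons with p53-heterozygous liver the deposited values lie to the right, with Derl1 and Atf6 the only filled red points.

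The genes also varied within groups. Of the 31 tested genes, 5 had all 3 double-mutant libraries above the other 6 after rescaling (16.1%, against 4.41% of all tested genes), namely Canx, Dnajc3, Atf6, Derl1 and P4hb. As deposited the count was 8 (25.8%, against 6.9% of all genes), which adds Hyou1, Edem1 and Sec61a1. The median SD of the log2 rescaled values within a group was 0.23 over the 31 genes in double-mutant, 0.27 in Tsc1-deleted and 0.83 in p53-heterozygous liver, beside 0.27, 0.33 and 0.66 over all genes. The widest spread of the list was thus in the p53-heterozygous group.

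P53-heterozygous libraries 1 and 2 had similar nuclear shares but different levels of these genes. After rescaling, 30 of the 31 were higher in library 1 than in library 2, and so were 51.1% of all tested genes, with a median log2 ratio of 1.11 over the 31 and 0.01 over all genes. The ratio was 11.5 for Creld2, 11.3 for Hyou1, 5.96 for Hspa5 and 4.96 for Syvn1, and Ern1 was the exception at 0.864. Library 1 gave the highest of the 9 values for 12 of the 32 genes, and library 2 gave the lowest for 21. How often these libraries gave the highest or lowest value over all genes was not counted. Depth was thin behind both, with a median over the 32 genes of 141 implied reads in library 1 and 42.6 in library 2. In library 2, 10 of the 31 tested genes rested on fewer than 20 reads. Hepatocyte markers summed to 31520 and 32442 rescaled FPKM in libraries 1 and 2, and plasma cell markers, of cells rich in ER, to 347 and 669. Igkc carried most of the plasma cell sums, at 278 and 596, while Sdc1 went the other way, at 27.8 and 7.70. The plasma cell sums were 89.8 to 178 in double-mutant, 144 to 316 in Tsc1-deleted and 347 to 669 in p53-heterozygous libraries. Of the 8 plasma cell genes, Tnfrsf17 was at 0 in every library but p53-heterozygous library 3, and the part of these cells in the values above was not tested.

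**Figure D4:**
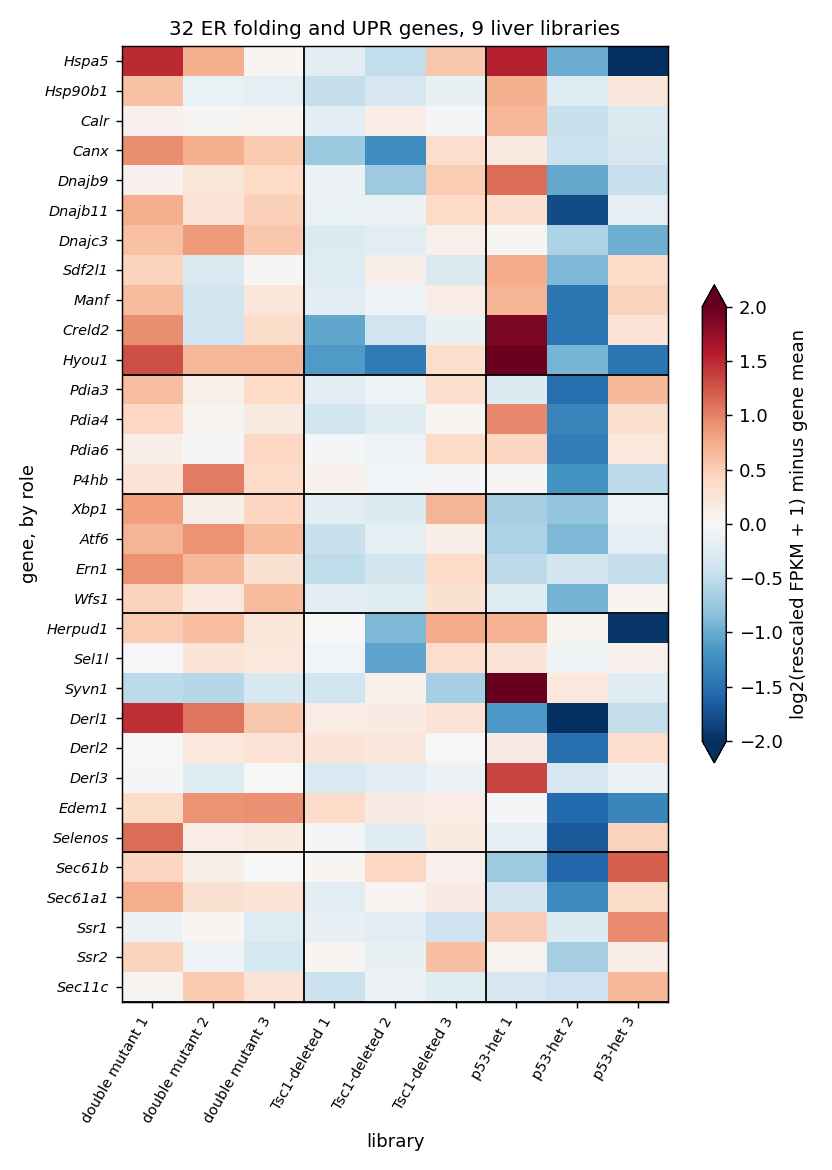
Log2(rescaled FPKM + 1) of the 32 genes minus each gene's mean over the 9 libraries, with genes in rows by role and libraries in columns, red above and blue below the mean. P53-heterozygous library 1 is red for Hspa5, Creld2, Hyou1 and Syvn1, library 2 is blue in most rows, and library 3 is blue for Hspa5 and Herpud1 and red for Sec61b and Ssr1.

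Together the 32 genes took 0.911, 0.848 and 0.745% of nuclear protein-coding FPKM in double-mutant, 0.563, 0.587 and 0.698% in Tsc1-deleted and 0.910, 0.357 and 0.598% in p53-heterozygous libraries. The double-mutant libraries were above the Tsc1-deleted ones, and p53-heterozygous library 1 reached the level of the highest double mutant. Chaperones and cofactors made up 0.444, 0.336 and 0.323% in double-mutant, 0.240, 0.276 and 0.316% in Tsc1-deleted and 0.538, 0.205 and 0.254% in p53-heterozygous libraries. The sensors and regulators were a small part, with shares of 0.0221 to 0.0313% in double-mutant, 0.0139 to 0.0263% in Tsc1-deleted and 0.00947 to 0.0156% in p53-heterozygous libraries.

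**Figure D5:**
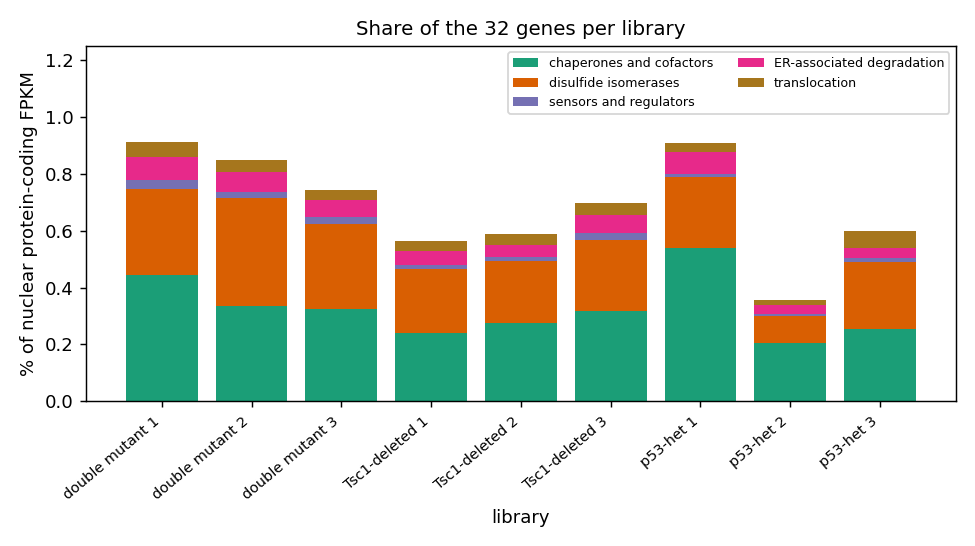
Percent of nuclear protein-coding FPKM taken by the 32 genes in each library, stacked by role. The double-mutant bars reach 0.745 to 0.911%, the Tsc1-deleted bars 0.563 to 0.698%, and the p53-heterozygous bars 0.357 to 0.910%.

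A wider list of 70 other genes of the pathway, all of which passed the filter, was counted beside them. None passed between double-mutant and Tsc1-deleted liver by limma on either scale, with 6 at an unadjusted p under 0.05 after rescaling (4.26% of all genes). Against p53-heterozygous liver, 40 of the 70 passed as higher in double-mutant liver as deposited (31.9% of all genes) and 2 after rescaling (2.15% of all genes), Trib3 and Vcp. In Tsc1-deleted liver 5 passed as deposited (12.1% of all genes) and 0 by limma after rescaling, with 4 of the 70 at an unadjusted p under 0.05 on the rescaled scale (16.8% of all genes).

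Trib3, a pseudokinase induced downstream of PERK, measured 64.0, 13.0 and 21.2 rescaled FPKM in double-mutant, 6.86, 10.5 and 22.1 in Tsc1-deleted and 2.90, 4.58 and 2.25 in p53-heterozygous libraries, and rose by 2.72 on the log2 scale (SE 0.60, limma adjusted p = 0.0431) against p53-heterozygous liver. Vcp, the ATPase that extracts proteins from the ER membrane for degradation, measured 65.7, 70.9 and 68.6 rescaled FPKM in double-mutant, 33.8, 25.9 and 48.6 in Tsc1-deleted and 17.0, 16.1 and 27.0 in p53-heterozygous libraries. Vcp rose by 1.76 (SE 0.40, limma adjusted p = 0.0449) against p53-heterozygous liver. Both calls were lost when any library other than p53-heterozygous library 3 or Tsc1-deleted library 3 was left out, with limma adjusted p from 0.0715 to 0.128 for Trib3 and from 0.0733 to 0.167 for Vcp. Vcp overlaps an antisense exon of another gene over 7.26% of its exon bases, and that gene measured at most 0.427 FPKM as deposited.

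Eif2ak3, the PERK sensor kinase that completes the set of sensors with Atf6 and Ern1, measured 10.8, 7.89 and 7.26 rescaled FPKM in double-mutant, 2.16, 1.67 and 5.54 in Tsc1-deleted and 2.46, 1.02 and 2.94 in p53-heterozygous libraries. All double-mutant libraries were above the other 6. The rescaled log2 difference was 1.66 (SE 0.41, limma adjusted p = 0.0562) against p53-heterozygous and 1.33 (SE 0.41, limma adjusted p = 0.882) against Tsc1-deleted liver, neither past the threshold. Ddit3, which encodes CHOP, a transcription factor of prolonged ER stress, measured 24.3, 12.8 and 16.0 rescaled FPKM in double-mutant, 7.57, 8.30 and 14.1 in Tsc1-deleted and 14.8, 5.22 and 11.97 in p53-heterozygous libraries, with overlapping groups. Atf4, the transcription factor translated when PERK is active, had its highest value, 193 rescaled FPKM, in p53-heterozygous library 3, against 81.8 to 157 in double-mutant libraries. That library is the one low in hepatocyte markers. Over the group means, Atf4 and all 10 PERK-arm genes of the wider list had positive rescaled double mutant minus p53-heterozygous estimates (log2 0.15 to 2.72). So did 59.9% of all genes, and of the 10 only Trib3 passed.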

How the data were processed

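Liver RNA of 9 libraries, 3 per genotype, was sequenced after ribosomal RNA depletion per the labels' protocols, though the labels call the molecule polyA RNA. Per the submitters' processing notes, the tools were cutadapt, STAR and StringTie and the build was mm9. Versions are not given in the sources used here. The deposited tables give 1 value per gene, read as FPKM made by the authors, since the values behave as that unit and no header names it. Of 52550 identifiers, 52403 matched GENCODE M21, which was used for symbols, lengths and overlaps only. RefSeq promoters are of GRCm38.p6, and their coordinates are not those of the authors' build.

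Values were tested as log2(FPKM + 1) with limma (version 3.58.1, R version 4.3.3), using its trend and robust options, on the 12014 genes that reached 1 FPKM in 3 or more of the 9 libraries. All 3 groups shared 1 fit, with no covariate, and p values were adjusted by Benjamini-Hochberg over those genes at 0.05. The same fit was made after rescaling each library to equal FPKM over 21806 nuclear protein-coding genes. Read depth was estimated from the FPKM step of a single read, and no counts were given. Python (3.11.15), pandas (2.3.3), numpy (2.4.6) and, for figures, matplotlib (3.10.9) were used. The fit was tested on simulated data.

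All 32 genes are named. Full values went to those called after rescaling, then to those with the lowest p up to 8, plus Hspa5, Xbp1, Atf6 and Ern1. Others given in full, and the genes named from the wider list, were chosen after their values were seen. The members and lists were chosen with earlier results of these data known. Alternatives were another pseudocount, no filter, other rescalings, no trend or robust steps, only the 6 libraries compared, a replicate block and leaving libraries out. After rescaling, deviations of same-numbered Tsc1-deleted and p53-heterozygous libraries correlated above 0.1 in all 3 pairs (r = 0.18, 0.12 and 0.35). Tsc1-deleted library 1 reached r = 0.32 with p53-heterozygous library 2, and Tsc1-deleted library 2 reached 0.14 with p53-heterozygous library 1. The remaining pairs of different number ran from -0.32 to -0.16. The values thus show no clear pairing by number, and the labels name none. The replicate block changed no count of calls in that comparison after rescaling by over 1.5 times.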

Additional observations from a re-analysis of the deposited data

How the results depend on the processing

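Between double-mutant and Tsc1-deleted liver the count of members called was 0 on both scales under every alternative run, and the count of genes called, 3 as deposited and 2 after rescaling, became 1 with no filter, 0 without the trend and robust steps and 35 with the replicate block as deposited, and 0 with a pseudocount of 0.1 after rescaling. Leaving out 1 library at a time gave 0 to 6 genes as deposited and 1 to 5 after rescaling.

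Between double-mutant and p53-heterozygous liver, the 18 members and 3892 genes called as deposited became 6 and 1142 with no filter, 3 and 908 (587 higher, 321 lower) with median-ratio rescaling, 2 and 519 (252 higher, 267 lower) with length-weighted nuclear rescaling, which was chosen after seeing the data, 2 and 1127 with only the 6 libraries compared, and 7 and 2212 (1265 higher, 947 lower) without p53-heterozygous libraries 1 and 2. Leaving out 1 library at a time gave 0 to 31 members and 322 to 11295 genes. After rescaling, the 2 members called became 1 with a pseudocount of 0.1, 0 with no filter, 0 with only the 6 libraries compared and 7 without p53-heterozygous libraries 1 and 2, and the 447 genes became 29 with no filter, 37 (31 higher, 6 lower) with only the 6 libraries and 3344 (1128 higher, 2216 lower) without those 2, against 258 higher and 189 lower with all 9 libraries. Leaving out 1 library at a time gave 0 to 11 members and 32 to 2891 genes.

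Between Tsc1-deleted and p53-heterozygous liver, the 4 members and 1470 genes called as deposited became 1 and 599 with no filter, 0 and 250 (169 higher, 81 lower) with median-ratio rescaling, 0 and 112 (43 higher, 69 lower) with length-weighted nuclear rescaling, and 0 and 20 with only the 6 libraries compared. The members became 9 without the trend and robust steps, and the genes 2600 (1179 higher, 1421 lower) without p53-heterozygous libraries 1 and 2. The 9 members and the 2600 genes come from different settings. Without the trend and robust steps, where 9 members were called, the genes called were 1862 (1848 higher, 14 lower). Leaving out 1 library at a time gave 0 to 30 members and 1 to 10820 genes. After rescaling, 0 members became 4 without p53-heterozygous libraries 1 and 2. The 21 genes called after rescaling became 35 with a pseudocount of 0.1, 4 with no filter, 97 without the trend and robust steps, 7 with only the 6 libraries and 4300 (1106 higher, 3194 lower) without p53-heterozygous libraries 1 and 2. Leaving out 1 library at a time gave 0 to 2 members and 3 to 985 genes.

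The replicate numbers pair nothing that the labels name. Deviations of same-numbered libraries correlated above 0.1 in all 3 pairs for Tsc1-deleted and p53-heterozygous libraries after rescaling, and not as deposited (r = 0.18, 0.07 and 0.23) or in the other comparisons. After rescaling, Tsc1-deleted libraries 1 and 2 each correlated more with the p53-heterozygous library of the other number, as given above. Against p53-heterozygous liver as deposited, the replicate block gave 27 members and 5974 genes for double-mutant and 8 members and 2277 genes for Tsc1-deleted liver. After rescaling it gave 1 member, Derl1, and 439 genes (2.1% of all genes higher and 1.56% lower) for double-mutant against p53-heterozygous liver. The cause of these changes was not tested. For the 9 genes given in full by the rule, 717 of the values recomputed under alternatives stayed on their side of the threshold and kept direction or moved by less than their SE, 120 lost a call, 23 gained one, 4 without a call changed sign by more than their SE, and none changed sign while called. Depth limits p53-heterozygous libraries 1 and 2, as given above, more than the others.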
